A study of Saccharomyces cerevisiae with 6 samples.

Results

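The genes described here encode the pyruvate dehydrogenase complex, the enzymes of the mitochondrial tricarboxylic acid (TCA) cycle, mitochondrial malic enzyme, peroxisomal malate dehydrogenase and the inner-membrane carriers for pyruvate, dicarboxylic and tricarboxylic acids. They were 31 genes chosen by name, of 5703 features measured, and all 31 were found. Of these, 28 carried the name in the deposited tables and 3 (MPC1, MPC2 and MPC3) were found through the symbol of their locus tag. Messenger RNA was compared between 2 Saccharomyces cerevisiae strains. In IMF17 glycolysis is expressed only from a neochromosome, a synthetic extra chromosome, whereas in IMX2109 it is expressed from the native genome. The sources used here do not give other alleles of the strains. Each strain is a single strain construct, and its 3 cultures were replicates derived from a frozen stock. They grew aerobically in shake flasks on selective minimal medium with glucose and were harvested in mid-exponential phase. The comparison asks how expression of the next stretch of carbon metabolism differs between these 2 strains. They differ in more than the place of glycolysis. Features of the 2-micron plasmid held 14854 to 15176 reads per library in IMF17 and 0 in IMX2109. Effects of moving glycolysis and of other strain differences cannot be told apart here. Because cultures of a strain share a stock, p-values measure the spread between these cultures only.

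In yeast the end product of glycolysis, pyruvate, enters mitochondria through the pyruvate carrier and is oxidised to acetyl-CoA by pyruvate dehydrogenase. The TCA cycle then oxidises the acetyl group and feeds electrons to the respiratory chain, while carriers exchange its acids with the cytosol, where they serve amino acid synthesis and redox shuttling. On high glucose S. cerevisiae mostly ferments. Many cycle genes are then repressed, and they are known to be activated by the Hap2/3/4/5 complex, which binds CCAAT boxes, and in part by the retrograde regulators Rtg1 and Rtg3.

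Libraries held 14999412 to 15914985 counted reads in IMF17 and 14696540 to 18801158 in IMX2109. The values are FPKM, counted reads relative to gene length and library total, so levels can be compared between genes. Features on the neochromosome took 15.3 ± 0.324% of the IMF17 reads and 9.61 ± 0.519% of the IMX2109 reads (SD, n = 3); in the latter, reads of glycolytic genes were counted on the IMF17 gene models. Nuclear chromosomes took 84.6 ± 0.323% and 90.4 ± 0.519%, so a nuclear gene with an equal share of nuclear reads has a lower FPKM in IMF17. Replicate 3 of IMX2109 stood apart from replicates 1 and 2 of that strain, with a chi-square of 18.1 and 8.52 per degree of freedom, where sampling noise alone gives 1, against 3.15 to 7.22 for the other replicate pairs. None of the 31 genes lies on the neochromosome. They lie on 12 chromosomes, no deposited feature overlaps any of them, and none shares a stretch of 50 bases with another place in the R64 reference genome.

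Among the 31 genes, citrate synthase, 2-oxoglutarate and succinate dehydrogenases, fumarase and malate dehydrogenases were higher in IMF17. Malic enzyme, MPC2 and 5 of the 6 dicarboxylate and tricarboxylate carriers were lower. The 4 pyruvate dehydrogenase genes did not pass the test in either direction. LPD1, the E3 subunit of that complex, is not among the 31 and passed narrowly as a rise (limma adjusted p = 0.0419). Of the 31 genes, 11 rose, 7 fell and 13 did not pass (limma adjusted p under 0.05, adjusted over all 5425 features tested). Over all features tested 12.1% rose and 25.3% fell, against 35.5% and 22.6% of the 31 genes. The median log2 fold change was 0.06 for the 31 genes and -0.07 for all features tested. Rises ran from 1.12-fold to 1.68-fold and falls from 1.13-fold to 1.47-fold. The strains' libraries did not overlap in 18 of the 31 genes, 11 higher and 7 lower in IMF17. Over all features tested they did not overlap for 49.6%, 14.5% higher and 35.1% lower. The counts depended on scaling. When FPKM was rescaled on nuclear reads, 18 of the 31 genes rose and 5 fell, against 1027 rises and 480 falls over all features; as shares, 58.1% and 16.1% of the 31 genes against 18.9% and 8.85% of all features. With median-ratio scaling the counts were 12 and 5, against 882 and 641 over all features, or 38.7% and 16.1% against 16.3% and 11.8%. Rises were thus more frequent among the 31 genes than over all features in all 3 scalings, while the share of falls was below that of all features on deposited FPKM and above it in the other two. Without IMX2109 replicate 3 the counts on deposited FPKM were 11 and 7, against 757 and 1257 over all features. As shares, these were 35.5% and 22.6% of the 31 genes against 14.0% and 23.2% of all features.

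**Figure D1:**
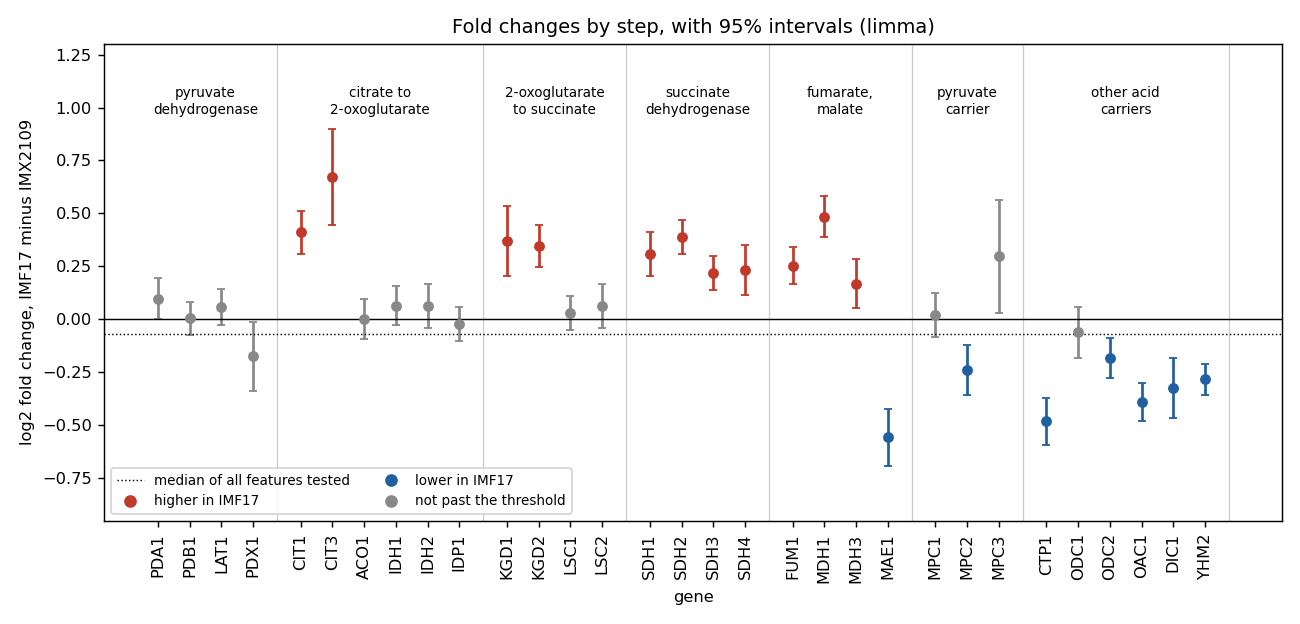
Log2 fold change of each of the 31 genes (IMF17 minus IMX2109, log2(FPKM + 1) scale, y axis), grouped by step along the x axis. Points are limma estimates, bars are 95% intervals, colours give the call, and the dotted line is the median of all features tested, at -0.07; rises lie at citrate synthase and, apart from LSC1 and LSC2, from 2-oxoglutarate to the malate dehydrogenases, and falls lie at MAE1 and among the carriers.

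On deposited FPKM the summed level of all 31 genes was close in both strains, 10287 ± 168 FPKM for IMF17 and 10292 ± 86.2 for IMX2109 (SD, n = 3), while its makeup differed by step. That closeness depends on scaling. Rescaling on nuclear reads raises every one of these genes in IMF17 relative to IMX2109, and the rescaled total was not computed. The 4 succinate dehydrogenase genes summed to 1606, 1620.2 and 1535 FPKM in IMF17 and to 1314, 1301 and 1272 FPKM in IMX2109. All 3 IMF17 libraries lay above all 3 of IMX2109, and the ratio of the means was 1.22. The 6 dicarboxylate and tricarboxylate carriers summed to 1792, 1827 and 1859 FPKM in IMF17 and to 2233, 2245 and 2313 FPKM in IMX2109, a ratio of 0.807 with no overlap. The ratio was 1.11 for 2-oxoglutarate dehydrogenase with succinyl-CoA ligase, 1.08 for the steps from citrate to 2-oxoglutarate, 1.08 for the fumarate and malate enzymes, 1.03 for pyruvate dehydrogenase and 0.866 for the pyruvate carrier. The sum of the fumarate and malate enzymes mixes FUM1, MDH1 and MDH3, at ratios of 1.19, 1.40 and 1.12, with MAE1 at 0.680. In the sum from citrate to 2-oxoglutarate, CIT1 and CIT3 passed as rises and the other genes did not pass. No test was made on these sums.

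**Figure D2:**
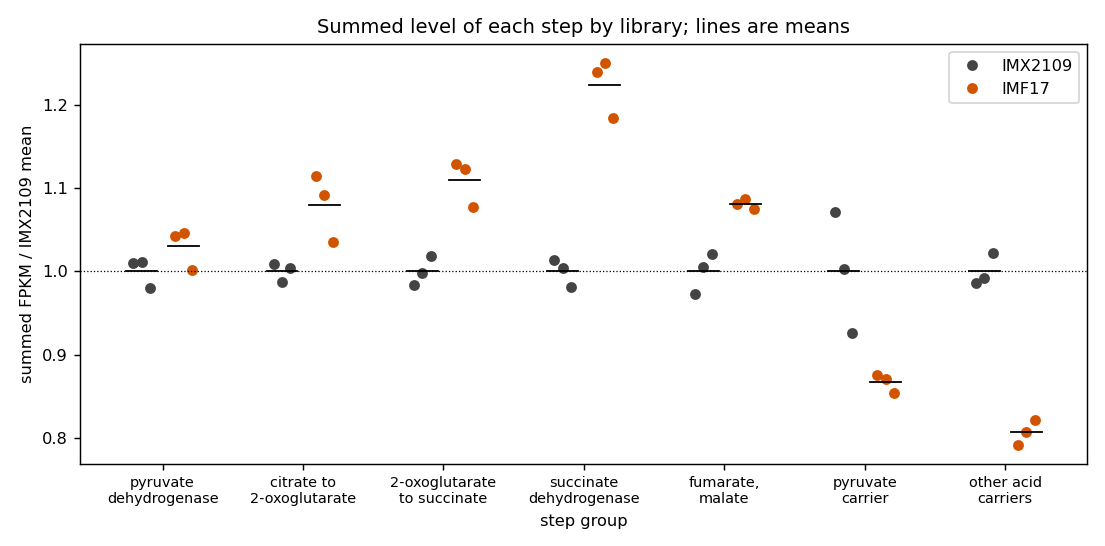
Summed FPKM of the genes of each step in each library, divided by the IMX2109 mean of that step (y axis, no unit; the axis does not start at 0), with steps along the x axis. Points are libraries and lines are means; succinate dehydrogenase stands at 1.22 and the 6 acid carriers at 0.807 in IMF17.

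Upstream sequence was read from the R64 reference genome of strain S288C, not from the strains measured, in a window from 400 to 101 bases before the start codon of each gene. CCAAT was searched on both strands. It was found upstream of 11 of the 11 genes that rose, 3 of the 7 that fell and 8 of the 13 that did not pass, and in 43.9% of 6007 such windows over the genome. A window can reach into a neighbouring gene. Stretches around the most upstream match are shown for the 4 rises with the smallest adjusted p and for the 3 falls that hold a match, so that the same letters can be seen on both sides of the comparison. Each is written 5′ to 3′ on the strand of the gene, with the 5 letters of its most upstream match in capitals, ATTGG being CCAAT read on the other strand. The SDH2 stretch also holds the next match of that window, left in lower case. 
MDH1, chr11:278864-278893, + strand: cactcagcgttcATTGGctcaatcacgcgc
SDH2, chr12:54074-54103, - strand: aggcggcctcgcATTGGcccaattagctcc
CIT1, chr14:631337-631366, - strand: tacttttgtgttATTGGaggatcgcaatcc
KGD2, chr4:755413-755442, - strand: ctttttttgcagCCAATcaaaactaaggtc
MAE1, chr11:385084-385113, - strand: aaaaaaaaaagaATTGGcgcatttgaagtt
ODC2, chr15:757940-757969, + strand: agacatggttgaCCAATtagttcttctcag
YHM2, chr13:751561-751585, + strand: aaagatgATTGGctaaatgcatagg
The longer form ACCAATNA, searched on both strands and itself holding CCAAT, was found in 1 of the 11 rises, 1 of the 7 falls, 3 of the 13 others and 5.33% of all windows. GTCAC, the core of the box bound by Rtg1 and Rtg3, was found in 5 of 11, 4 of 7 and 5 of 13, and in 29.4% of all windows. The Mig1-type letters CCCCGC were found in 2 of 11, 0 of 7 and 5 of 13 (3.83% of all windows), and CCCCAC in 0 of the 31 (5.51% of all windows). A match is a string of letters, not a shown binding site.

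Pyruvate dehydrogenase, the gate from glycolysis into the cycle, differed little between the strains in its 4 subunits among the 31 genes. Its E3 subunit LPD1, which passed narrowly as a rise, is described below with the other pathway genes. PDB1, the E1 beta subunit (chromosome 2, 657187 to 658287), stood at 467, 479 and 459 FPKM in IMF17 and at 465, 467 and 469 FPKM in IMX2109. The values of the strains were interleaved, and the log2 fold change was 0.00 ± 0.04 (SE), with a 95% interval from -0.07 to 0.08 (limma adjusted p = 0.935). PDA1, the E1 alpha subunit, was measured at 400.3, 393 and 378 FPKM against 378, 371 and 345 FPKM. The lowest IMF17 value lay just under the highest of IMX2109, and the log2 fold change of 0.10 did not pass (95% interval 0.00 to 0.20, limma adjusted p = 0.107). The tables give PDA1 a length of 1332 bases, and it was the only one of the 31 genes whose length differed from the reference annotation. LAT1, the E2 acetyltransferase, stood at 356 ± 8.28 against 342 ± 9.12 FPKM (limma adjusted p = 0.256). PDX1, which anchors the E3 subunit to the core, was the rarest of the 4 at 33.9 ± 2.32 against 38.4 ± 2.88 FPKM, and did not pass (log2 fold change -0.17, limma adjusted p = 0.0829). It passed as a fall only without IMX2109 replicate 1 (limma adjusted p = 0.0421). After rescaling on nuclear reads PDA1 and LAT1 passed as rises, with log2 fold changes of 0.19 and 0.15 (limma adjusted p = 0.0108 and 0.0155).

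At the entry of the cycle, citrate synthase rose and the enzymes after it did not pass. CIT1, the main mitochondrial citrate synthase (chromosome 14, 630006 to 631445), stood at 470.0, 463 and 428 FPKM in IMF17 and at 329, 337 and 357 FPKM in IMX2109. Every IMF17 culture lay above every IMX2109 culture. The rise was 1.33-fold, with a log2 fold change of 0.41 ± 0.05 (SE, limma adjusted p = 6.38e-05). CIT3, a minor mitochondrial citrate and methylcitrate synthase, had the widest change of the 31 genes and the lowest level. It was measured at 10.6, 10.4 and 9.50 FPKM against 6.95, 5.91 and 5.26 FPKM, from 113 to 243 reads per library. The strains did not overlap, and CIT3 was 1.68-fold higher in IMF17 (log2 fold change 0.67 ± 0.10, limma adjusted p = 0.000592).

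ACO1, mitochondrial aconitase, was level between the strains, at 532, 503 and 492 FPKM in IMF17 and 497, 499.7 and 529 FPKM in IMX2109. Its log2 fold change was 0.00, with a 95% interval from -0.09 to 0.09 (limma adjusted p = 0.994). IDH1 and IDH2, the subunits of NAD-dependent isocitrate dehydrogenase, stood at 335 ± 12.6 against 320.2 ± 10.4 FPKM and at 446 ± 19.1 against 427 ± 21.1 FPKM. Their log2 fold changes were both 0.06 and did not pass (limma adjusted p = 0.258 and 0.319), and the ratio of IDH1 to IDH2 was 0.750 ± 0.0051 in IMF17 and 0.749 ± 0.0130 in IMX2109. IDP1, the mitochondrial NADP-dependent isocitrate dehydrogenase, stood at 226 ± 3.33 against 230 ± 2.69 FPKM (log2 fold change -0.02, limma adjusted p = 0.658). After rescaling on nuclear reads IDH1 and IDH2 passed as rises (log2 fold change 0.16 for each, limma adjusted p = 0.0208 and 0.0348), and ACO1 and IDP1 did not.

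2-Oxoglutarate dehydrogenase rose and the ligase that follows it did not pass. KGD2, its E2 succinyltransferase (chromosome 4, 731307 to 732698), stood at 258, 259.5 and 240.3 FPKM in IMF17 and at 204, 199.97 and 191 FPKM in IMX2109. The strains did not overlap, and KGD2 was 1.27-fold higher (log2 fold change 0.35 ± 0.04, limma adjusted p = 0.000164). KGD1, the E1 subunit, was measured at 119.7, 112 and 114 FPKM against 78.9, 88.9 and 100.4 FPKM. It was also above IMX2109 in every culture, by 1.29-fold (log2 fold change 0.37 ± 0.07, limma adjusted p = 0.00304), and its IMX2109 libraries were spread more widely than those of IMF17. LSC1 and LSC2, the alpha and beta subunits of succinyl-CoA ligase, stood at 383 ± 9.53 against 376 ± 1.82 FPKM and at 241 ± 5.53 against 231 ± 13.6 FPKM. Neither passed, with log2 fold changes of 0.03 and 0.06 (limma adjusted p = 0.541 and 0.324). LSC2 passed as a rise with median-ratio scaling (limma adjusted p = 0.0461), and both passed after rescaling on nuclear reads (limma adjusted p = 0.0285 and 0.0250).

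Succinate dehydrogenase, which is both a cycle enzyme and complex II of the respiratory chain, rose in all 4 subunits. SDH2, the iron-sulfur subunit (chromosome 12, 38390 to 39190), stood at 601, 600.3 and 568 FPKM in IMF17 and at 451, 451 and 448 FPKM in IMX2109. The gap between the strains was several times the spread within either, and the rise was 1.31-fold (log2 fold change 0.39 ± 0.04, limma adjusted p = 1.46e-05). SDH1, the flavoprotein subunit, was measured at 163, 156 and 150.0 FPKM against 122, 127 and 129 FPKM, 1.24-fold higher without overlap (log2 fold change 0.31, limma adjusted p = 0.000483). SDH3 and SDH4, the membrane anchors, were 1.16-fold and 1.18-fold higher (limma adjusted p = 0.000928 and 0.00599). SDH3 stood at 551 ± 4.26 against 473 ± 13.3 FPKM and SDH4 at 289.9 ± 19.9 against 246 ± 10.2 FPKM. Within a library, the ratio of SDH1 to SDH2 and that of SDH3 to SDH4 overlapped between the strains (two-sided exact permutation p = 0.2 and 0.9, n = 3 and 3).

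The last steps of the cycle rose too. MDH1, mitochondrial malate dehydrogenase (chromosome 11, 277927 to 278931), stood at 509.8, 488 and 467 FPKM in IMF17 and at 357, 353 and 335 FPKM in IMX2109. All IMF17 cultures were higher, by 1.40-fold, and MDH1 had the smallest adjusted p of the 31 genes (log2 fold change 0.48 ± 0.04, limma adjusted p = 9.62e-06). FUM1, fumarase, was measured at 242, 249 and 237 FPKM against 197, 206 and 207 FPKM, 1.19-fold higher without overlap (log2 fold change 0.25, limma adjusted p = 0.000690). MDH3, the malate dehydrogenase of peroxisomes, was 1.12-fold higher, at 208 ± 2.88 against 186 ± 13.7 FPKM (log2 fold change 0.17, limma adjusted p = 0.0273). The call of MDH3 was lost when IMF17 replicate 1, 2 or 3 or IMX2109 replicate 1 was left out (log2 fold change 0.178, 0.158, 0.169 and 0.106, limma adjusted p from 0.0573 to 0.0973).

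**Figure D3:**
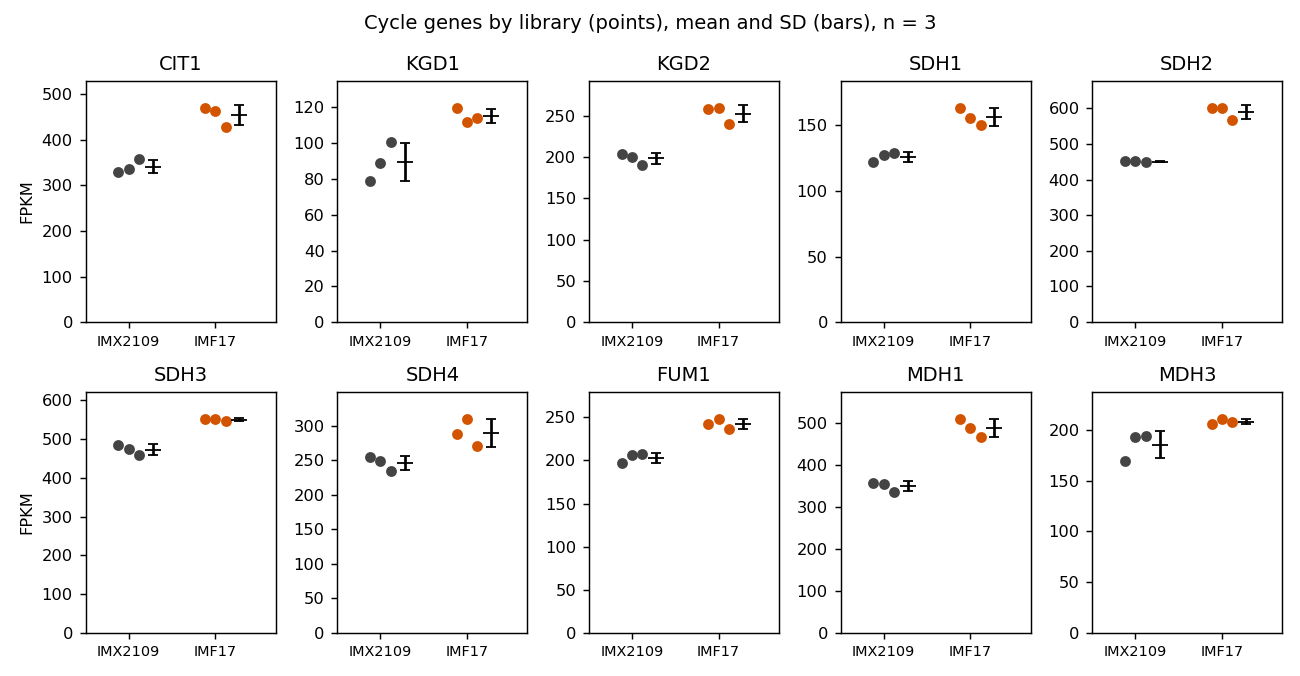
FPKM in each library of 10 of the genes called as rises, all but CIT3 (y axes start at 0). IMX2109 is on the left and IMF17 on the right of each panel. Points are libraries, and bars are the mean and SD of 3. In all 10 panels the IMF17 libraries lie above those of IMX2109, as these genes were drawn because they rose. ACO1, IDH1, IDH2, IDP1, LSC1 and LSC2, which did not pass and overlapped between the strains, are not drawn.

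MAE1, mitochondrial malic enzyme, which turns malate into pyruvate, went the other way from the malate dehydrogenases. It stood at 223, 239 and 262 FPKM in IMF17 and at 339, 346 and 379 FPKM in IMX2109 (chromosome 11, 379670 to 381679). No culture of IMF17 reached the lowest of IMX2109. MAE1 was 1.47-fold lower, the largest fall among the 31 genes, with a log2 fold change of -0.56 ± 0.06 (SE, limma adjusted p = 4.84e-05).

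The pyruvate carrier is a pair of subunits in which Mpc1 joins either Mpc2, the partner known from fermenting cells, or Mpc3, the partner known from respiring cells. MPC2 had the highest level of the 31 genes and was lower in IMF17, at 1292, 1309 and 1276 FPKM against 1649.8, 1530.2 and 1406 FPKM. The strains did not overlap, although IMX2109 was spread widely, and MPC2 was 1.18-fold lower (log2 fold change -0.24 ± 0.05, limma adjusted p = 0.00485). That call was lost with median-ratio scaling and on nuclear reads (log2 fold changes -0.17 and -0.14, limma adjusted p = 0.0972 and 0.0837). MPC3 stood far lower, at 41.4, 31.6 and 29.4 FPKM against 24.8, 31.2 and 26.2 FPKM. Its ranges overlapped and it did not pass (log2 fold change 0.30, 95% interval 0.03 to 0.56, limma adjusted p = 0.0742). Replicate 1 of IMF17 held the highest value, and without it the log2 fold change was 0.153 (limma adjusted p = 0.288). MPC3 passed as a rise on nuclear reads, without IMF17 replicate 3 and without IMX2109 replicate 2 (log2 fold changes 0.392, 0.395 and 0.389, limma adjusted p = 0.0347, 0.0366 and 0.0426). MPC1 stood at 147 ± 7.72 against 145 ± 3.25 FPKM (limma adjusted p = 0.734).

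Ratios of genes within a library do not depend on how libraries are scaled. The ratio of MPC3 to MPC2 was 0.0321, 0.0241 and 0.0230 in IMF17 and 0.0151, 0.0204 and 0.0187 in IMX2109. Every IMF17 value lay above every IMX2109 value, and the ratio was 1.46-fold higher. The ratio of MPC1 to MPC2 was 1.20-fold higher, that of CIT3 to CIT1 1.27-fold higher, that of PDA1 to PDB1 1.07-fold higher and that of LAT1 to PDX1 1.18-fold higher, each without overlap. Without IMX2109 replicate 3 the log2 difference fell from 0.35 to 0.22 for CIT3 to CIT1 and from 0.094 to 0.051 for PDA1 to PDB1. For MPC3 to MPC2 it was 0.546, and at lowest 0.398 when 1 library was left out. For LAT1 to PDX1 it was 0.238, and at lowest 0.159. The ratio of MDH3 to MDH1 was lower without overlap, 0.427 ± 0.0220 against 0.534 ± 0.0532. For these 6 of the 12 pairs compared, the exact two-sided permutation test gave p = 0.1, its lower limit with 3 libraries a strain, and 0.2 after Benjamini-Hochberg adjustment over the 12 pairs. Single features did not overlap between the strains in 49.6% of those tested, and no such share was computed for ratios over all features. The ratios of MPC3 and of MPC1 to MPC2 share a denominator, so they are not separate observations. The other 6 pairs overlapped between the strains, among them IDH1 to IDH2, LSC1 to LSC2, KGD1 to KGD2 and ODC1 to ODC2 (two-sided exact permutation p = 1, 0.6, 0.9 and 0.2, n = 3 and 3).

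Of the 6 carriers of dicarboxylic and tricarboxylic acids among the 31 genes, 5 fell and ODC1 did not pass. Over all features tested 25.3% fell. With median-ratio scaling and on nuclear reads 4 of the 6 fell, against 11.8% and 8.85% of all features. SFC1, a succinate and fumarate carrier outside the 31 genes, rose 3.06-fold on few reads (limma adjusted p = 0.000101). YHM2, which exchanges citrate and 2-oxoglutarate across the inner membrane, was the second most abundant of the 31 genes. It stood at 675.3, 675.4 and 675.4 FPKM in IMF17 and at 823.5, 821 and 820.1 FPKM in IMX2109 (chromosome 13, 738706 to 739650). Both sets were tight, and YHM2 was 1.22-fold lower (log2 fold change -0.28 ± 0.03, limma adjusted p = 7.19e-05). CTP1, the citrate carrier, was measured at 231, 227 and 255 FPKM against 326, 323 and 345 FPKM. It was 1.40-fold lower without overlap, the largest fall of a carrier among the 31 genes (log2 fold change -0.48 ± 0.05, limma adjusted p = 3.16e-05).

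OAC1, which carries oxaloacetate and the leucine precursor isopropylmalate, stood at 362, 388 and 388 FPKM in IMF17 and at 484, 504 and 505 FPKM in IMX2109. It was 1.31-fold lower without overlap (log2 fold change -0.39 ± 0.04, limma adjusted p = 3.08e-05). DIC1, the dicarboxylate carrier, was 1.25-fold lower, at 102 ± 7.54 against 128 ± 8.79 FPKM (log2 fold change -0.32, limma adjusted p = 0.00248). ODC2 and ODC1 carry 2-oxoglutarate and related acids, and ODC2 was the more abundant in every library. ODC2 fell 1.13-fold, from 426 ± 20.6 to 376 ± 8.51 FPKM (log2 fold change -0.18, limma adjusted p = 0.00708). Its call was lost with median-ratio scaling (log2 fold change -0.115, limma adjusted p = 0.0629) and on nuclear reads (-0.085, limma adjusted p = 0.155). ODC1 stood at 55.7 ± 2.25 against 58.2 ± 2.43 FPKM (log2 fold change -0.06, limma adjusted p = 0.411).

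**Figure D4:**
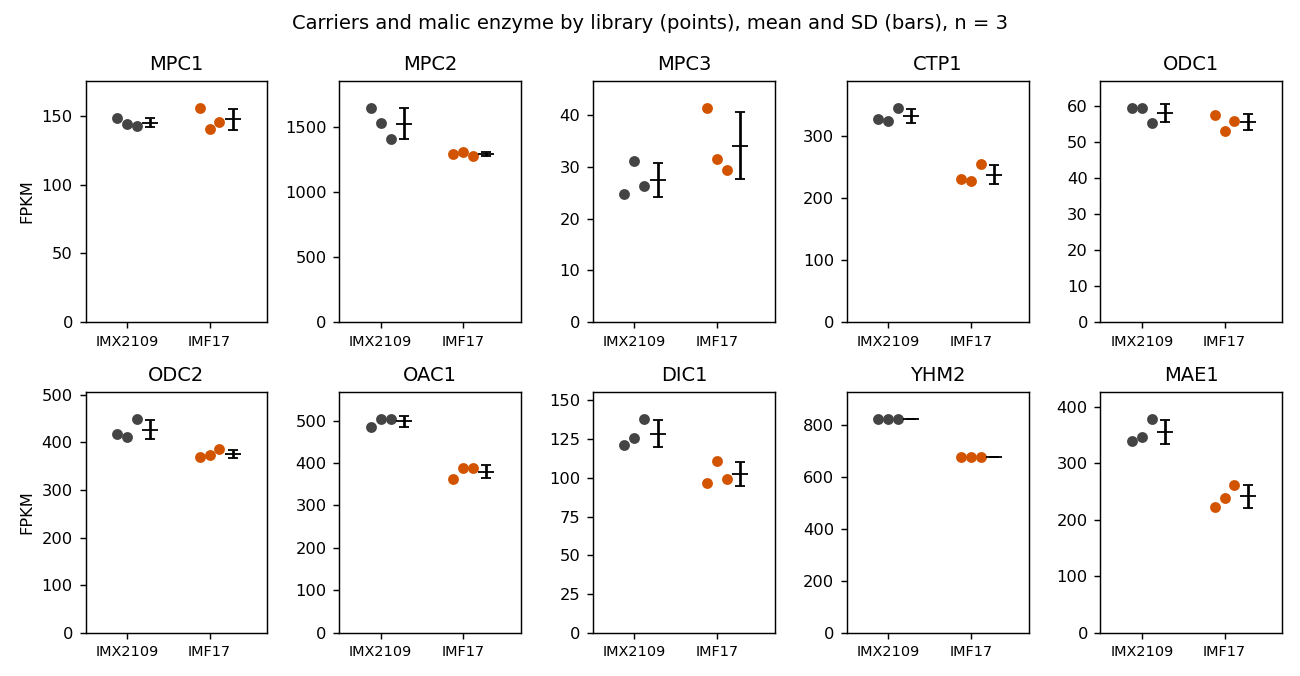
FPKM of the 9 carriers and of MAE1 in each library (y axes start at 0), with IMX2109 on the left and IMF17 on the right of each panel. Points are libraries, and bars are the mean and SD of 3; the strains overlap for MPC1, MPC3 and ODC1, and IMF17 lies lower for the other 7.

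Of the 18 genes called, 15 (10 rises and 5 falls) were also called under every other setting in which they were tested. The exceptions were MDH3, MPC2 and ODC2, and 0 of the 18 changed sign. Median-ratio and nuclear-read scaling moved log2 fold changes upward, by 0.06 and 0.09 at the median of all features. These scalings therefore put the falls at risk rather than the rises. Of the 13 genes that did not pass, 7 passed as rises after rescaling on nuclear reads. These were PDA1, LAT1, IDH1, IDH2, LSC1, LSC2 and MPC3. CIT3 was left out where a mean of 10 FPKM was asked for.

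**Figure D5:**
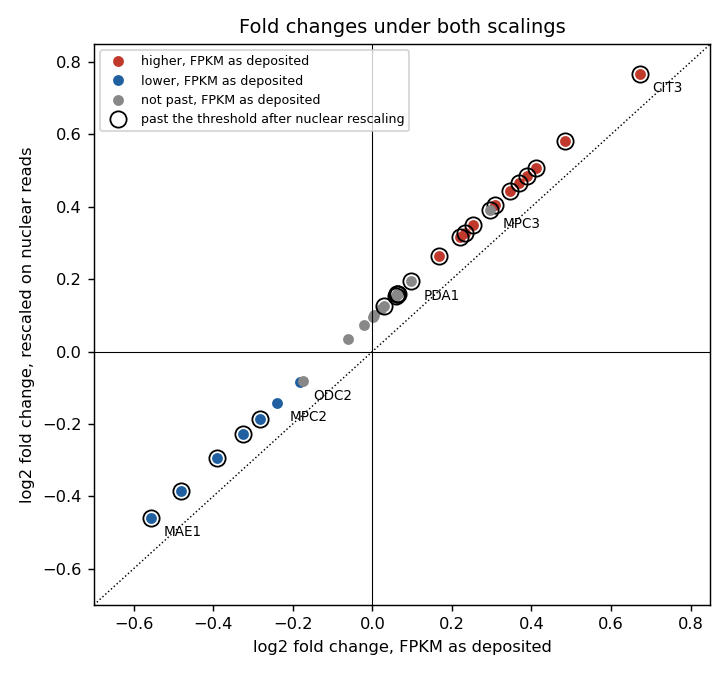
Log2 fold change of each of the 31 genes (IMF17 minus IMX2109) on FPKM as deposited (x axis) and after rescaling on nuclear reads (y axis). Colours give the call on deposited FPKM and rings mark genes past the threshold after rescaling; every gene lies above the dotted line of equality, and MPC2 and ODC2 are the called genes without a ring.

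Other genes of the same pathway were read from lists of 64 genes found in the tables, of which 18 rose, 9 fell and 37 did not pass (limma; 12.1% rose and 25.3% fell over all features tested). Their median log2 fold change was 0.02. Among 13 isozymes and neighbouring enzymes 5 rose and 2 fell. CIT2, the citrate synthase of peroxisomes and a known target of the retrograde regulators, fell 1.50-fold, from 543 ± 7.68 to 363 ± 46.6 FPKM (limma adjusted p = 0.000133), opposite to CIT1 and CIT3. MDH2, the cytosolic malate dehydrogenase, rose 1.60-fold to 41.0 ± 3.36 FPKM and IDP2, the cytosolic NADP-dependent isocitrate dehydrogenase, rose 1.43-fold to 22.7 ± 0.960 FPKM (limma adjusted p = 7.91e-05 and 0.00124). LPD1, the E3 subunit shared by pyruvate and 2-oxoglutarate dehydrogenases, was 1.08-fold higher and passed narrowly (limma adjusted p = 0.0419; called in 9 of 16 other settings). PYC1 and PYC2, the pyruvate carboxylases that refill the cycle, stood at log2 fold changes of -0.11 (limma adjusted p = 0.182) and 0.19 (limma adjusted p = 0.0411; called in 10 of 16 other settings). The fifth rise was SHH3, a paralog of SDH3, at 3.71 ± 0.643 against 1.97 ± 0.696 FPKM (limma adjusted p = 0.0114).

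Of 11 genes of assembly, lipoylation and regulation of these enzymes, 4 rose and 0 fell. SDH6, an assembly factor of succinate dehydrogenase, rose 1.53-fold to 72.9 ± 4.45 FPKM (limma adjusted p = 0.000106), and KGD4, a subunit of 2-oxoglutarate dehydrogenase, rose 1.20-fold (limma adjusted p = 0.00509). The pyruvate dehydrogenase kinase PKP1 and the phosphatase PTC6, which act on the complex in opposite directions, both rose 1.22-fold (limma adjusted p = 0.00716 and 0.00623). Of 12 transcriptional regulators 2 rose and 1 fell. HAP4, the activating subunit of the CCAAT-binding complex, was 1.15-fold higher, at 137 ± 9.16 against 119 ± 2.66 FPKM (limma adjusted p = 0.0121). ADR1, an activator of glucose-repressed genes, rose 1.38-fold from 3.48 FPKM (limma adjusted p = 0.0172; called in 12 of 15 other settings). MIG1, a glucose repressor, fell 1.28-fold (limma adjusted p = 0.000330). RTG1, RTG2 and RTG3 did not pass, at log2 fold changes of -0.07, -0.01 and -0.15 (limma adjusted p = 0.43, 0.895 and 0.0939).

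Of 28 other mitochondrial carriers and porins 7 rose and 6 fell. SFC1, the succinate and fumarate carrier, stood at 3.27 ± 0.273 against 1.07 ± 0.274 FPKM, CRC1, the carnitine carrier, at 16.8 ± 2.05 against 6.27 ± 0.753 FPKM, and PIC2, a minor phosphate carrier, at 146 ± 16.7 against 61.2 ± 0.992 FPKM. All 3 rose, by 3.06-fold, 2.69-fold and 2.39-fold (limma adjusted p = 0.000101, 5.05e-06 and 2.19e-07), more than any of the 31 genes. SFC1 rested on 12 to 55 reads per library, and its log2 fold change ran from 0.447 to 1.61 over the other settings. POR1, the main porin of the outer membrane, rose 1.14-fold, and SAL1, AAC1 and HEM25 were the other rises. POR1 was called in 14, AAC1 in 12 and SAL1 in 7 of 16 other settings, and HEM25 in all 16. GGC1, the GTP and GDP carrier, fell 1.24-fold (limma adjusted p = 0.000130), and the other falls were ORT1, YEA6, YMC1, YMC2 and POR2, by 1.12-fold to 1.19-fold. Of these, YMC2 was called in 14, ORT1 and YMC1 in 13, YEA6 in 10 and POR2 in 7 of 16 other settings. Of the 6 falls, only GGC1 was still called after rescaling on nuclear reads.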

How the data were processed

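Per the labels' protocols, the RNA extraction used hot phenol, and a TruSeq stranded mRNA kit gave the libraries. The authors deposited FPKM, with 1 table per library. Per the submitters' processing notes, the tools included featureCounts, DESeq2, edgeR, SAMtools and STAR 2.5.4a. Their roles and settings, and how strand and multiply mapped reads were handled, are not stated in them. Per the file headers, features lie on a polished IMF17 assembly, and gene positions above are on it. Promoter positions are on R64. Multiplied by gene length, 100% of values were whole numbers of reads (tolerance 0.01 reads), which recovered the reads per feature.

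Features with a mean of at least 1 FPKM were tested with limma 3.58.1 (R 4.3.3, trended prior, two-sided) on log2(FPKM + 1). Calls used an adjusted p under 0.05 (Benjamini-Hochberg). Log2 fold changes with this pseudocount understate changes of low genes. Folds are ratios of mean FPKM. Of the 67 names on the other lists, 64 separate genes were found. The test was checked on simulated reads in which a set of features changed in random directions. The simulation held no shift in the neochromosome share, so it does not speak to the choice of scaling. Its noise was the same in every library, and fewer features changed in it than were called here. It therefore gives no error rate for these libraries. Alternatives were other pseudocounts, filters, scalings and variance models, limma-voom on recovered reads, a replicate block, and dropping each library in turn. The genes named were all 31 and, of the other lists, those past the threshold and a few set by name; 1 of these is not reported here. The 31 genes, the lists, motifs, windows and alternatives were chosen with earlier results of these data known. Other steps ran in Python 3.11.15 with numpy 2.4.6, pandas 2.3.3, scipy 1.17.1 and matplotlib 3.10.9.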

Additional observations from a re-analysis of the deposited data

How the results depend on the processing

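Scaling moved results most. It shifted the median log2 fold change of all features by 0.06 (median-ratio) and 0.09 (nuclear reads). On nuclear reads 18 of the 31 genes were higher, and over all features 1027 were higher and 480 lower, with 641 lower under median-ratio scaling, against 654 and 1375 on deposited FPKM. Among the other pathway genes 9 were lower on deposited FPKM, 5 under median-ratio scaling and 4 on nuclear reads. Under median-ratio scaling and on nuclear reads the summed levels (IMF17 over IMX2109) were 1.08 and 1.1 for pyruvate dehydrogenase, 1.13 and 1.15 for citrate to 2-oxoglutarate, 1.16 and 1.19 for 2-oxoglutarate to succinate, 1.28 and 1.31 for succinate dehydrogenase, 1.13 and 1.16 for the fumarate and malate enzymes, and 0.845 and 0.862 for the acid carriers; on nuclear reads the pyruvate carrier stood at 0.926. Leaving out 1 library at a time gave 10 to 12 rises and 7 or 8 falls among the 31 genes, 12 to 18 rises and 5 to 9 falls among the other pathway genes, and 525 to 757 rises and 938 to 1324 falls over all features. The lowest of these for the other pathway genes, 12 and 5, came without IMF17 replicate 2. With the replicate number as a block the 31 genes gave 11 rises and 7 falls, and all features gave 685 and 1517. Deviations of same-numbered libraries correlated weakly (0.0954, -0.0517 and 0.137). Those of differently numbered libraries ran from -0.148 to 0.0961. The numbers were not treated as pairs. Among the 31 genes, MPC3 and CIT3, with at most 287 and 243 reads per library, are those whose precision depth limits most. Of the other genes named, SFC1 and SHH3 held fewer, 12 to 55 and 13 to 37 reads per library.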
